A study of Mus musculus with 4 samples.

Results

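In ribosome-bound RNA of the mouse deep cerebellar nuclei, 9 genes were examined that belong to noradrenaline, acetylcholine or neuropeptide S neurons of the adjoining brainstem. They are Th, Dbh, Slc6a2, Slc18a2 and Phox2a of noradrenergic neurons, Chat, Slc18a3 and Slc5a7 of cholinergic neurons, and Nps, which encodes neuropeptide S. The 9 genes, of 32531 gene names counted, were chosen by name as genes of the locus coeruleus, the parabrachial area and the cranial motor nuclei, and chosen on their uneven counts between these same libraries. Their unevenness is therefore given below as a description, with no test.

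The material is 1 group of 4 immunopurified libraries from adult Slc17a6-TRAP mice of the line JX883, without treatment, each library made from 3 pooled mice. The transgene puts an EGFP-tagged ribosomal protein, Rpl10a, in cells in which the Slc17a6 construct is active, so that antibodies to EGFP pull down their ribosomes with the RNA on them. Slc17a6 encodes a vesicular glutamate transporter that is used by projection neurons of the deep nuclei and also by many excitatory neurons of the brainstem. A library of the unbound or input RNA is not analysed here, so enrichment of a gene over the whole dissected tissue could not be measured. All values are given for replicates 1 to 4 in that order.

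Noradrenaline is made from tyrosine by way of dopamine, with tyrosine hydroxylase (Th) as the rate-limiting enzyme and dopamine beta-hydroxylase (Dbh) as the last one. The transmitter is packed into vesicles by the vesicular monoamine transporter Slc18a2 and taken back up by the noradrenaline transporter Slc6a2. Most noradrenaline of the forebrain and cerebellum comes from the locus coeruleus, a compact nucleus beneath the cerebellum at the edge of the fourth ventricle. Acetylcholine is made by choline acetyltransferase (Chat) and packed by the vesicular transporter Slc18a3, and the high-affinity choline transporter Slc5a7 brings in its precursor. In rodents neuropeptide S, an arousal-promoting peptide, is made by few cells, which lie beside the locus coeruleus and in the parabrachial area.

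The sequence just before the start of 4 genes is shown because these genes carry the main contrasts below: Th and Dbh make noradrenaline, Slc18a3 is the most uneven cholinergic gene, and Nps has the highest level per exon length. Each is the 250 bases before the RefSeq start (assembly GRCm38.p6), read 5′ to 3′ on the gene's own strand: chr7:142899996-142900245, minus strand, for Th; chr2:27165257-27165506, plus strand, for Dbh; chr14:32464851-32465100, minus strand, for Slc18a3; and chr7:135268369-135268618, plus strand, for Nps. Capitals mark 3 motifs searched on both strands, namely the cAMP response element TGACGTCA, the homeodomain core ATTA (TAAT when read on the other strand) and the TATA box TATAAA.
Th: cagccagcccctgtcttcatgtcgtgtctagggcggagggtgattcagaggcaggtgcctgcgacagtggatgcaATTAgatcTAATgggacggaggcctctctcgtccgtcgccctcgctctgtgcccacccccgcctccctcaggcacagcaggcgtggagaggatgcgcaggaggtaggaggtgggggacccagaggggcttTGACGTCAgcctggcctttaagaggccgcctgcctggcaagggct
Dbh: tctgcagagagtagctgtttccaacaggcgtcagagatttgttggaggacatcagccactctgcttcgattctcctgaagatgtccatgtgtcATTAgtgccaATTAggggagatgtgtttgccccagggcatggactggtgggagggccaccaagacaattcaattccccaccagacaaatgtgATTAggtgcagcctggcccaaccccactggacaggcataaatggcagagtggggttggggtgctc
Slc18a3: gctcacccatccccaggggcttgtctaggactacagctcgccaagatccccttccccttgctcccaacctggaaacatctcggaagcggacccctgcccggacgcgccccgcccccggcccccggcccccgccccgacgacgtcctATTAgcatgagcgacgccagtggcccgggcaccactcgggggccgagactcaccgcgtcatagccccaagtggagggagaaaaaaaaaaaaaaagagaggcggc
Nps: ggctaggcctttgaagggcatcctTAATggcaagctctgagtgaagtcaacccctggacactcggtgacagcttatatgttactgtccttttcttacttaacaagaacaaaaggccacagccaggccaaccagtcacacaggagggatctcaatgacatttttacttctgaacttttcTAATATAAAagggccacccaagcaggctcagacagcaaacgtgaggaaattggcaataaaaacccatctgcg
A RefSeq promoter entry was matched for 8 of the 9 genes, all but Slc6a2. The cAMP response element was found in Th alone among these 8, with its first base 45 bases before the start, and 1.56% of 32536 distinct mouse promoter windows of 250 bases hold it. The homeodomain core was found in 5 of 8, with 3 matches in Dbh, 2 each in Th and Nps and 1 each in Slc18a2 and Slc18a3, and 54.8% of all windows hold it. Phox2a is a homeodomain protein known to activate Dbh, but a match of 4 letters is frequent and is not a binding site by itself. The TATA box stood 69 bases before the Nps start, where it overlaps the nearer ATTA match, and 187 bases before that of Slc5a7, and it is in 12.3% of windows. The windows of Th, Dbh and Nps lie inside the wider gene spans of GENCODE given below.

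The stretch of the Nps transcript that carries the peptide is shown for reference, since reads were counted by gene name and not over this stretch. It was read from the longest open reading frame of a GENCODE M21 transcript, a frame of 72 residues. Capitals mark a pair of codons for basic residues, at which peptide precursors are cleaved, and the 20 codons after it encode the mature peptide.
Nps coding: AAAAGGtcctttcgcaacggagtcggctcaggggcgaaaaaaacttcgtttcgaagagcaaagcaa

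The 4 libraries held 9621762, 10306407, 10436291 and 10988373 reads assigned to named genes, so that 3 reads, used here as the limit of detection, are 0.312, 0.291, 0.287 and 0.273 counts per 1000000 reads (CPM). Counting intervals are exact 95% Poisson intervals, which cover counting error only, since reads are not corrected for amplification. Slc17a6 itself was at 2237, 2011, 2014 and 2309 CPM (2143 ± 153, SD, n = 4), and Rpl10a averaged 164 ± 36.9 CPM. Slc17a6 thus varied little while the genes below varied widely. The ribosomal RNA gene Rn45s took 4.99, 14.2, 13.6 and 4.92% of the reads, a split that does not follow that of the 9 genes. The labels do not say whether the pools of mice were dissected separately or on the same day, so the spread between libraries may be partly technical. The counts also cannot tell more cells of a type in a library from more ribosome-bound RNA per cell.

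All 4 libraries held Th reads, and its level was 2.39, 22.2, 6.52 and 31.6 CPM, from 23, 229, 68 and 347 reads. Replicates 4 and 2 were high, replicate 3 was intermediate and replicate 1 was lowest, and none of the 4 counting intervals of Th overlap (28.3 to 35.1 CPM in replicate 4 and 19.4 to 25.3 CPM in replicate 2). The highest library had 13.2 times the level of the lowest. Th spans chr7:142892752-142931128 on the minus strand in GENCODE M21, on the build mm10 that the files use.

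Dbh, the enzyme that separates noradrenaline from dopamine neurons, was at 1.04, 7.28, 0 and 19.1 CPM, from 10, 75, 0 and 210 reads. Replicate 4 (interval 16.6 to 21.9 CPM) was above replicate 2 (5.72 to 9.12 CPM), which was above replicate 1 (0.498 to 1.91 CPM), and replicate 3 had no read although its Th level was the third of the 4. Against the limit of 3 reads in replicate 3, Dbh was at least 66.5-fold higher in replicate 4, and replicate 4 alone carried most of its mean, which was 6.86 CPM over the 4 libraries and 2.77 CPM without that library. Dbh lies at chr2:27165233-27183200 on the plus strand.

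The noradrenaline transporter Slc6a2 (chr8:92960079-93001667, plus strand) was at 0.624, 14.0, 3.45 and 13.1 CPM. Its order differed from that of the enzymes, since replicates 2 and 4 had 144 reads each and their counting intervals overlap, 11.8 to 16.4 CPM in replicate 2 and 11.1 to 15.4 CPM in replicate 4. Replicate 1 had 6 reads, and the level in replicate 2 was 22.4 times the level in replicate 1.

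Slc18a2, which packs noradrenaline, dopamine and serotonin alike, was the most even of the 8 genes with a mean of at least 1 CPM. It was at 8.63, 20.2, 5.08 and 30.5 CPM, with 83 reads in replicate 1 where Th had 23, and its highest library was 6.0 times above its lowest. The gene (chr19:59260896-59296012, plus strand) shares 111 exon bases with Gm29261 on the opposite strand, and no source used here states whether the counting used strand, so that reads from this pair could be mixed. Phox2a, a homeodomain factor that noradrenergic neurons need to form and keep expressing, had 0, 1, 0 and 5 reads. It exceeded 3 reads in replicate 4 alone, at 0.455 CPM, and no fold is drawn from it. Phox2a (chr7:101818313-101822726, plus strand) shares 95 exon bases with the opposite-strand gene Inppl1.

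**Figure D1:**
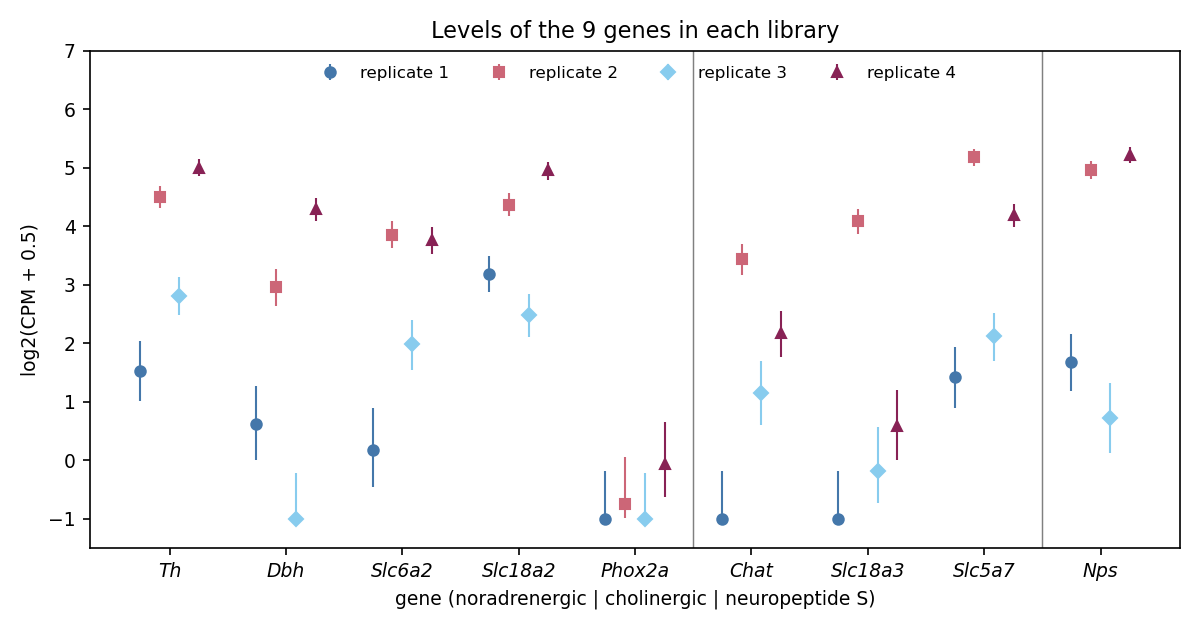
Levels of the 9 genes in each of the 4 libraries, as log2(CPM + 0.5), with exact 95% Poisson intervals as bars and 1 point per library. Replicates 2 and 4 lie above replicates 1 and 3 for 8 of the genes, with the Slc18a3 intervals of replicates 4 and 3 overlapping, and Phox2a stays at or near the limit of 3 reads.

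The cholinergic genes had their peak in replicate 2. Chat (chr14:32408203-32465989, minus strand) was at 0, 10.3, 1.72 and 4.0 CPM, from 0, 106, 18 and 44 reads. Slc18a3, which lies inside the span of Chat on the same strand (chr14:32462438-32464850) and shares no exon base with it, was at 0, 16.5, 0.383 and 1.0 CPM, from 0, 170, 4 and 11 reads. Both genes were thus without a read in replicate 1 and highest in replicate 2, but the step from replicate 2 to replicate 4 was unequal: Chat was 2.57 times and Slc18a3 16.5 times higher in replicate 2 than in replicate 4. The interval of Slc18a3 was 14.1 to 19.2 CPM in replicate 2, 0.50 to 1.79 CPM in replicate 4 and 0.104 to 0.981 CPM in replicate 3, so that those of replicates 4 and 3 overlap. Its mean of 4.47 CPM fell to 0.461 CPM without replicate 2, so the level of Slc18a3 rests on that library, and that of Chat fell to 1.91 CPM, against 4.0 CPM over all 4.

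Slc5a7 (chr17:54273590-54299034, minus strand) had the highest CPM of the 3 cholinergic genes in all 4 libraries, at 2.18, 35.8, 3.83 and 17.7 CPM. Replicate 2 (32.2 to 39.6 CPM) was above replicate 4 (15.3 to 20.4 CPM), and both were well above replicates 3 and 1, which had 40 and 21 reads. Against the limit of 3 reads in replicate 1, Chat was at least 33.0-fold and Slc18a3 at least 52.9-fold higher in replicate 2, while Slc5a7, which was detected in replicate 1, was 16.4 times higher. Per exon length, on a scale set out below, Slc18a3 was above Slc5a7 in replicate 2, at 37.1 against 34.4. The mean of Slc5a7 was 14.9 CPM, and 7.92 CPM without replicate 2.

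Nps was at 2.70, 30.8, 1.15 and 36.9 CPM, from 26, 317, 12 and 405 reads. The counting intervals of its high libraries overlap, 33.4 to 40.6 CPM in replicate 4 and 27.5 to 34.3 CPM in replicate 2, and the low libraries were far below both. The 32.1-fold step from lowest to highest library was therefore carried by 2 libraries at nearly the same level, where Dbh and Slc18a3 each peaked in 1. Nps spans chr7:135258703-135272942 on the plus strand, and its mean was 17.9 ± 18.6 CPM (SD, n = 4), and 11.5 CPM without replicate 4.

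The folds between the highest and the lowest library rest on single libraries. Without replicate 1 the fold was 4.85 for Th, 4.05 for Slc6a2, 5.96 for Chat and 9.34 for Slc5a7. Without replicate 3 it was 18.4 for Dbh, 3.53 for Slc18a2 and 13.6 for Nps. Without replicate 2 it was at least 12.8 for Chat, at least 3.21 for Slc18a3 and 8.13 for Slc5a7, and without replicate 4 it was at least 25.3 for Dbh and 3.97 for Slc18a2. Each of the 8 genes kept a step of more than 3-fold when any 1 library was left out. Because they were chosen as uneven in these same libraries, and the share of all genes that do so was not computed, nothing is read from this.

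Replicates 2 and 4 both exceeded replicates 1 and 3 for 8 of the 8 genes with a mean of at least 1 CPM, an order seen in 10.7% of 13656 genes at that level. On log2(CPM + 0.5) the highest library was at least 4-fold above the lowest for the same 8 genes and for 25.5% of the 13656, with a median step of 4.09 for the 8 and 1.26 for all. The step ran from 2.47 for Slc18a2 to 5.29 for Dbh. Because uneven counts chose these genes, nothing is read from either count. Within that order the peak differed: Th, Dbh and Slc18a2 were highest in replicate 4, and Chat, Slc18a3 and Slc5a7 in replicate 2. Slc6a2 and Nps had overlapping counting intervals in replicates 2 and 4, with a ratio of replicate 4 to replicate 2 of 0.938 and 1.20. The lowest library was replicate 1 for Th, Slc6a2, Chat, Slc18a3 and Slc5a7, and replicate 3 for Dbh, Slc18a2 and Nps.

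Summed over the 5 noradrenergic genes the level was 12.7, 63.7, 15.0 and 94.7 CPM (46.6 ± 39.8, SD, n = 4), and summed over the 3 cholinergic genes it was 2.18, 62.6, 5.94 and 22.8 CPM (23.4 ± 27.6). The cholinergic sum was 0.982 times the noradrenergic sum in replicate 2, against 0.172, 0.395 and 0.240 times in replicates 1, 3 and 4. Replicates 2 and 4, both above replicates 1 and 3 in the 8 genes, thus held them in different proportions: the noradrenergic sum was 1.49 times higher in replicate 4 than in replicate 2, and the cholinergic sum 2.75 times higher in replicate 2 than in replicate 4. Without replicate 4 the mean noradrenergic sum was 30.5 CPM, and without replicate 2 the mean cholinergic sum was 10.3 CPM.

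Shares within a group of genes compare the libraries free of the total. Slc18a2 made up 68.0% of the noradrenergic reads in replicate 1 (95% Wilson interval 59.3 to 75.6%), against 31.7, 33.8 and 32.2% in replicates 2 to 4. Replicate 1 thus held Slc18a2 out of step with Th, at 3.61 reads of Slc18a2 for each read of Th, where the other 3 libraries had 0.908, 0.779 and 0.965. The share of Dbh was 20.2% in replicate 4 (17.8 to 22.7%), against 8.20, 11.4 and 0% in replicates 1 to 3. Slc6a2 made up 4.92, 21.9, 22.9 and 13.8%, so that the shares of Dbh and Slc6a2 peaked in different libraries.

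Among the cholinergic reads, Slc18a3 made up 26.4% in replicate 2 (23.1 to 29.9%), against 4.40% (2.47 to 7.71%) in replicate 4, 6.45% (2.54 to 15.4%) in replicate 3 and 0 of 21 reads in replicate 1. The interval of replicate 2 lies apart from those of replicates 3 and 4. Chat made up 0, 16.4, 29.0 and 17.6%, and Slc5a7 the rest, at 100, 57.2, 64.5 and 78.0%. All 21 cholinergic reads of replicate 1 were therefore from the choline transporter, without the enzyme or the vesicular transporter. With so few reads the interval of Chat and of Slc18a3 in replicate 1 reaches 15.5%. That covers the Slc18a3 shares of replicates 3 and 4 and overlaps the Chat intervals of replicates 2 and 4.

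**Figure D2:**
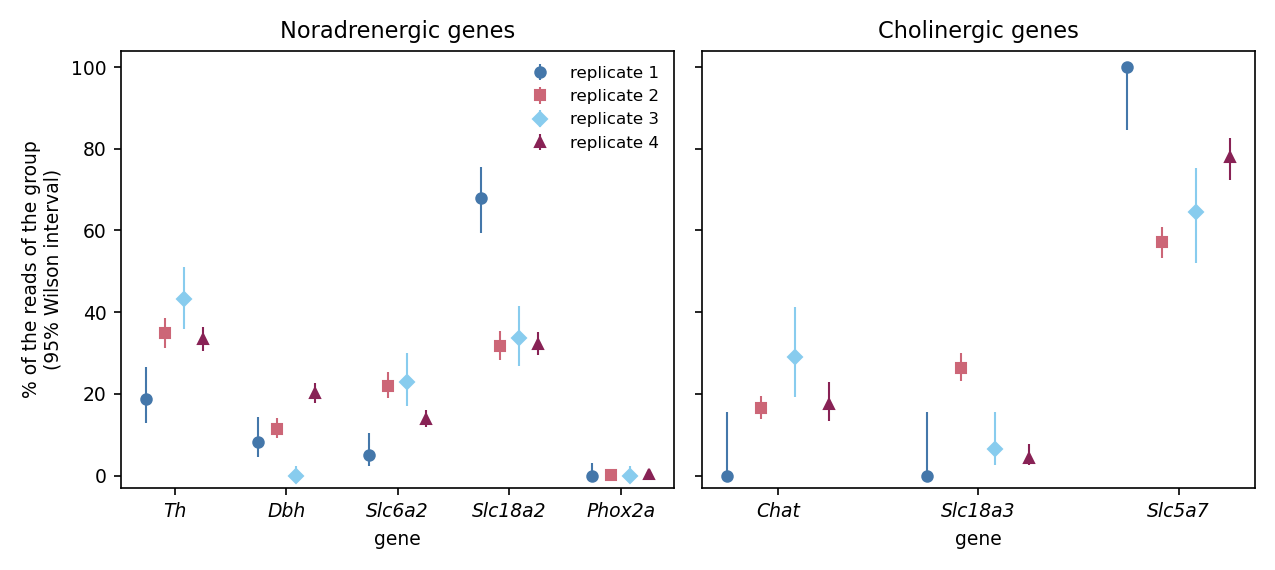
Share of reads, in percent, that each gene took of the noradrenergic (left) and the cholinergic reads (right) in the 4 libraries. Slc18a2 takes 68.0% of the noradrenergic reads in replicate 1, and Slc18a3 takes 26.4% of the cholinergic reads in replicate 2 and at most 6.45% in the others.

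Ratios between genes were taken within each library as differences on log2(CPM + 0.5), and are means ± SD over the libraries with reads of both genes. Th was above Slc6a2 by 1.02 ± 0.34, in 4 of 4 libraries. Th was above Dbh by 1.06 ± 0.44, and Nps above Dbh by 1.33 ± 0.59, each in the 3 libraries with Dbh reads. Slc5a7 was above Chat by 1.58 ± 0.55 in the 3 libraries with Chat reads. Chat and Slc18a3 kept no order: their difference was -0.66 in replicate 2 and 1.59 in replicate 4.

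Per kilobase of exon, scaled to 1000000 over the names with a GENCODE length, Nps had the highest mean level, 65.5 ± 68.5 (SD, n = 4), above Th. On that scale the mean level was 35.5 ± 30.7 for Th, 16.3 ± 11.9 for Slc18a2, 14.2 ± 15.0 for Slc5a7, 13.5 ± 17.3 for Dbh and 10.05 ± 18.1 for Slc18a3. It was 6.66 ± 5.76 for Slc6a2, 4.61 ± 5.18 for Chat and 0.361 ± 0.563 for Phox2a. None of the neighbours in that order differ by more than the SD of their difference over the 4 libraries, so the order of the means is loose, although Slc6a2 was above Chat in 4 of 4.

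The genes whose profile over the 4 libraries lay nearest to each group were found by the Euclidean distance between centred log2(CPM + 0.5) values, over genes with a mean of at least 5 CPM. With 4 points many genes lie close by, and the result is a description. Nearest to the noradrenergic sum, of 10542 genes, were Gpx3 (distance 0.61), which encodes a secreted glutathione peroxidase, Nr4a2 (0.62), a nuclear receptor of dopamine and other neurons, Grin2d (0.63), an NMDA receptor subunit, the prolactin receptor gene Prlr (0.71), and Rab3b (0.78), which encodes a vesicle protein. Gpx3 was at 44.1, 172, 46.7 and 182 CPM, and Nr4a2 at 24.6, 70.3, 20.4 and 110 CPM, both well above the level of the noradrenergic genes themselves.

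Nearest to the cholinergic sum, of 10545 genes, were Slc6a2 (1.13), the GLP-1 receptor gene Glp1r (1.48), Th (1.5), Grin2d (1.66) and C130021I20Rik (1.70), which was at 0.935, 17.9, 1.25 and 1.91 CPM. Distances were larger than for the noradrenergic sum. Slc6a2 and Th here, and Dbh in the ranking for Nps, are among the 9 genes chosen as uneven in these same libraries, so nothing is read from their places. Nearest to Nps were Col9a3 (0.80), a collagen gene, Tmem176a (0.80), Dbh (0.90), Slc10a4 (0.91) and Glp1r (0.97). Slc10a4, known from synaptic vesicles of cholinergic and monoaminergic neurons, was at 0.104, 13.6, 0 and 8.92 CPM, with 1 read in replicate 1 and none in replicate 3. With a pseudocount of 2 in place of 0.5, 2, 4 and 4 of the 5 genes were kept for the noradrenergic sum, the cholinergic sum and Nps.

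Other genes of the same systems were then followed in lists of 123 genes in all. Each library was set against the mean of the other 3 with edgeR's quasi-likelihood test, Benjamini-Hochberg adjusted over the 11227 genes that passed the low-count filter, at a threshold of 0.05. Of the 123 genes 63 were tested, and none was called in any of the 4 comparisons. Over all genes 0.00891% were called for replicate 1 (1 gene), 0% for replicate 2, 0% for replicate 3 and 0.0534% for replicate 4 (6 genes), so the test made few calls anywhere. At an unadjusted p under 0.05 it gave 424, 44, 779 and 1692 genes, and DESeq2 called 16, 1, 68 and 359. At that unadjusted limit 3 list genes were higher and 8 lower in replicate 1, 0 were higher or lower in replicate 2, 11 higher and 6 lower in replicate 3, and 7 higher and 8 lower in replicate 4. Each comparison sets 1 library against 3, and the lone library is assumed to vary like the others.

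Of the noradrenergic genes, Th and Slc18a2 passed the filter of that fit, as did Slc5a7 and Nps, while Dbh, Slc6a2, Phox2a, Chat and Slc18a3 did not. No test was made of any of the 9.

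The list of other catecholamine genes held 13 names for synthesis, cofactors, transport and breakdown, of which 7 were tested. Its median log2 fold change was 0.01, -0.22, -0.07 and -0.66 for replicates 1 to 4, against -0.07, -0.07, -0.05 and -0.05 over all genes. Genes that many cells use were the most abundant: Maoa, which oxidises catecholamines, averaged 31.7 ± 6.61 CPM, Cyb561, an electron carrier of secretory vesicles, 29.6 ± 13.2 CPM, and Qdpr, which recycles the cofactor of Th, 24.2 ± 7.73 CPM (SD, n = 4). The summed level of the list was 191, 140, 144 and 115 CPM and was not higher in replicates 2 and 4. More selective genes were low, and are named here after their values were seen. Ddc, which makes dopamine and serotonin from their precursors, was at 2.18, 7.96, 0.479 and 2.82 CPM, and Gch1, which makes the cofactor of Th, had at most 0.208 CPM. Pnmt, which makes adrenaline, had no read in any library. The dopamine transporter gene Slc6a3 was at 3.22, 0.679, 0 and 0 CPM, with its peak in replicate 1, where Th was lowest.

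Of 5 other locus coeruleus genes 3 were tested. Oprm1, the mu opioid receptor gene, was at 18.1, 37.1, 20.7 and 68.5 CPM, and Tfap2b, a transcription factor gene, averaged 29.4 ± 5.71 CPM. The summed level of the list was 73.8, 79.3, 69.9 and 106 CPM, with replicates 2 and 4 above replicates 1 and 3, an order that Oprm1 alone sets: without it the other 4 genes summed to 55.7, 42.2, 49.3 and 37.2 CPM. The median log2 fold change of the 3 tested genes was -0.38, -0.24, -0.13 and -0.01 for replicates 1 to 4. Hcrtr1, an orexin receptor gene of locus coeruleus neurons, named after its values were seen, was at 1.04, 6.40, 0.671 and 8.37 CPM, higher in replicates 2 and 4. Oprm1 was likewise higher in replicates 2 and 4, but the rest of the list was not. Adra2a, which is described with the receptors, was highest in replicate 1 and lowest in replicate 4. Gal, a peptide gene also named after its values were seen, had no read in replicate 4.

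Serotonin neurons adjoin the region as well, and their defining genes were at or near 0. Tph2, which starts serotonin synthesis in the brain, and the serotonin transporter gene Slc6a4, both named after their values were seen, had reads in replicate 2 alone, at 0.194 and 0.485 CPM. Fev, the factor that sets serotonin identity, averaged 0.710 ± 0.657 CPM. Of the 8 genes in the list 1 was tested, Htr1a, a serotonin receptor gene that other neurons use, at 53.1, 13.7, 14.9 and 20.3 CPM. Gata2, a transcription factor gene of several neuron types, was at 2.08, 0, 17.4 and 1.37 CPM and stood high in replicate 3 alone. The sum of the list was 56.5, 18.0, 32.3 and 22.1 CPM, with replicates 2 and 4 not above replicates 1 and 3. Dopaminergic neuron genes summed to 96.0, 109, 58.9 and 129 CPM, higher in replicates 2 and 4, but the 7 genes other than Nr4a2 summed to 71.4, 38.7, 38.5 and 19.0 CPM, highest in replicate 1 and lowest in replicate 4. In this list Nr4a2 had the largest mean, and Aldh1a1 averaged 21.3 ± 9.34 CPM and En1 12.1 ± 11.8 CPM. Of the histaminergic genes neither was tested, and Hdc averaged 0.811 ± 1.08 CPM and Hnmt 2.35 ± 1.93 CPM.

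Of 13 other cholinergic and motor neuron genes 4 were tested, with a median log2 fold change of -1.45, 0.40, -0.07 and 0.37 for replicates 1 to 4. Ache, which breaks down acetylcholine, was at 36.6, 99.6, 98.5 and 66.0 CPM, Nos1, a nitric oxide synthase gene of mesopontine cholinergic neurons among others, at 19.95, 52.1, 31.4 and 77.6 CPM, and Slc44a1, a choline transporter-like gene, averaged 36.7 ± 7.12 CPM. The sum of the list was 103, 216, 182 and 184 CPM, with replicates 2 and 4 above replicates 1 and 3, though replicate 4 only slightly above replicate 3. Ache was lowest in replicate 1, like the 3 cholinergic genes, but about as high in replicate 3 as in replicate 2. Without Ache the other genes of the list together also had replicates 2 and 4 above replicates 1 and 3. That order depends on Nos1, since without it the rest of the list was lower in replicate 4 than in replicate 3. Named after their values were seen, the motor neuron factor genes Isl1, Isl2 and Mnx1 had no read in any library, and Tbx20, of cranial motor neurons, had 0.194 CPM in replicate 2 and none elsewhere.

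Of 13 parabrachial area genes 7 were tested, with a median log2 fold change of 0.91, -0.41, -1.35 and -0.16 for replicates 1 to 4. The list summed to 1118, 575, 425 and 955 CPM, so that replicate 1, the lowest in 5 of the 9 genes, was the highest here. Without Cck the other genes of the list together were highest in replicate 4, which rests on Penk, at 260, 293, 316 and 576 CPM. With both Cck and Penk left out, the rest of the list was again highest in replicate 1. The peptide gene Penk had the largest mean, 361 ± 145 CPM, Cck was at 497, 105, 32.8 and 165 CPM, and Foxp2, a transcription factor gene, at 171, 36.2, 18.9 and 134 CPM. Unlike Nps, both Cck and Foxp2 were highest in replicate 1.

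Of 10 receptor genes for noradrenaline and neuropeptide S, 5 were tested. Adra1a was at 7.59, 14.9, 4.02 and 30.5 CPM, with the same order of libraries as Slc18a2, while Adra2a, an autoreceptor gene of noradrenergic neurons that other neurons also use, was at 27.4, 7.76, 10.3 and 1.37 CPM and Adra2c averaged 10.2 ± 4.43 CPM. Adra2a was thus lowest in replicate 4, where Th, Dbh and Slc18a2 were highest. Npsr1, the receptor gene for neuropeptide S, named after its values were seen, was at 6.44, 2.23, 0.767 and 17.6 CPM. Hox genes, which mark the hindbrain caudal to the territory that forms the cerebellum, were low, with Hoxa2 at 1.57 ± 0.906 CPM, Hoxb3 at 1.39 ± 1.80 CPM and Hoxa3 at 0.854 ± 1.58 CPM, and none of 12 was tested.

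**Figure D3:**
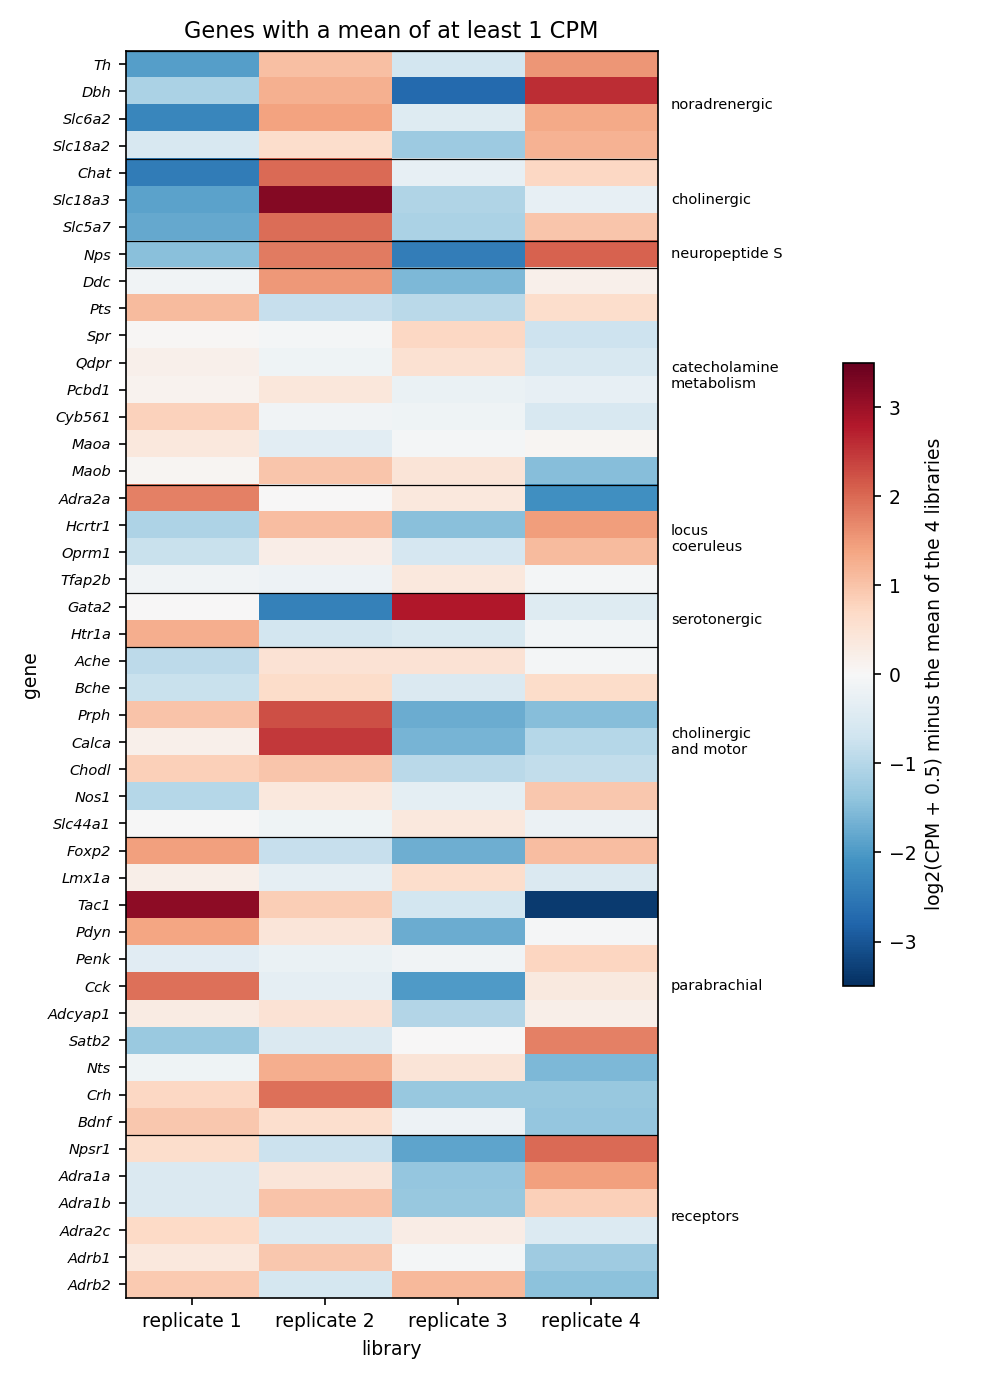
Departure of each gene from its own mean over the 4 libraries, on log2(CPM + 0.5), for the 8 genes that averaged 1 CPM or more (upper rows), with genes of 6 companion lists at that level under them; a gene of several lists is shown once. The 8 genes are higher in replicates 2 and 4 than in replicates 1 and 3, whereas Cck and Foxp2 are highest in replicate 1.

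Markers of the cells of the nuclei and their surroundings were summed in the same libraries. Excitatory nuclear neuron markers summed to 2952, 2494, 2466 and 3004 CPM, most of it Slc17a6. Purkinje cell markers summed to 1334, 1614, 3237 and 1151 CPM, granule cell markers to 435, 534, 1050 and 441 CPM, and inhibitory neuron markers to 114, 173, 369 and 72.3 CPM. These 3 sums, and the glial and vascular sums given next, were highest in replicate 3, where the 9 genes were low. Astrocyte markers summed to 306, 445, 721 and 435 CPM, oligodendrocyte markers to 471, 729, 1150 and 996 CPM, microglia markers to 4.16, 6.50, 14.3 and 10.6 CPM and vascular markers to 32.3, 10.6, 37.1 and 26.7 CPM. None of these 8 sums had both replicates 2 and 4 above replicates 1 and 3. The part of any cell type in the levels of the 9 genes was not tested.

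**Figure D4:**
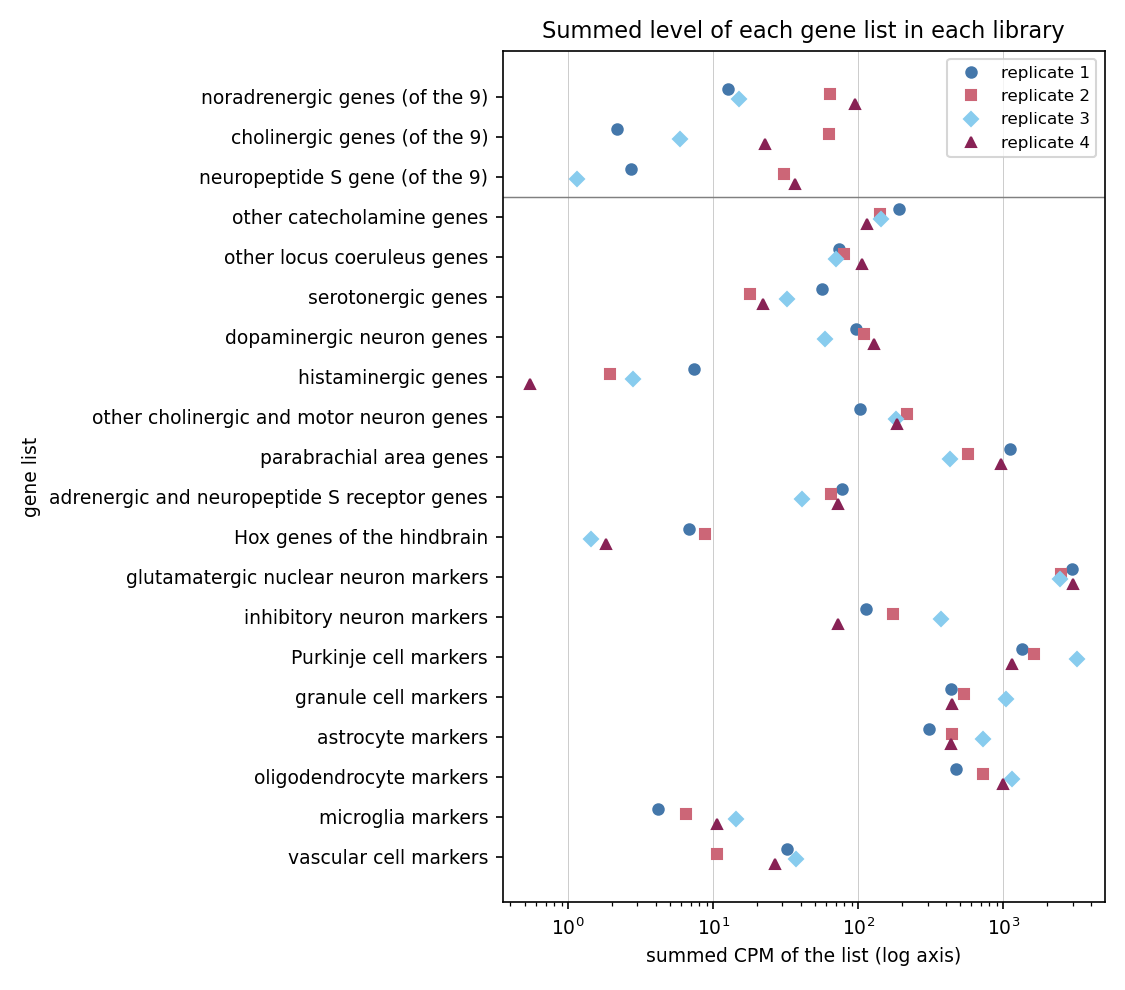
Summed CPM of each gene list in the 4 libraries, on a log axis, with 1 point per library. The rows of the 9 genes (top 3) have replicates 2 and 4 above replicates 1 and 3. Purkinje, granule, inhibitory, glial and vascular markers are all highest in replicate 3.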

How the data were processed

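Ribosome-bound RNA of 4 immunopurified libraries was sequenced. The authors deposited raw counts, 1 file a library, with a whole number of reads for every gene name. The submitters' processing notes list STAR 2.0.0e as a tool, HTSeq as another, and mm10 as the genome build; which annotation was counted, and whether by strand, is not stated there. The 5 summary rows of the counting program and 1 row that names no gene, which held no reads, were left out, leaving 32531 names. No pair of libraries was alike within sampling noise (34.9 to 127 chi-square units per degree of freedom).

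CPM used totals over all names and a pseudocount of 0.5 on the log2 scale. Levels per exon length used union exon lengths of GENCODE M21, matched by symbol to 71.2% of names, to 92.4% of the 13656 names that averaged 1 CPM or more, and to all 9 genes. Every library was compared with the mean of the remaining 3 in edgeR 4.0.16 under R 4.3.3 (filterByExpr, TMM scaling, robust quasi-likelihood fit, two-sided, Benjamini-Hochberg over all genes tested), and the code was tested on simulated counts. DESeq2 1.42.0, RLE scaling, no filter, another filter, counts without Rn45s, leaving out each library, and a pseudocount of 2 were alternatives. With 1 group the labels imply no contrast, so p-values measure only how 1 library departs from the spread of the others, which may be technical.

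The 9 genes and the companion lists were chosen with earlier results of these data known, and some list genes are not reported here. Beside the 9 genes, those named are Slc17a6, Rpl10a, the 3 genes of highest mean in each list and up to 6 called ones, and the 5 nearest profiles of each group; genes outside that rule are marked as named after their values were seen.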

Additional observations from a re-analysis of the deposited data

Results flagged for a closer look

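The 9 genes, their sums and the genes nearest to them in profile were picked by these same values and were not examined. In each of 49 other named profiles of 4 libraries the gap between the highest or the lowest library and its nearest neighbour was divided by the whole range of CPM, and set against the critical value of Dixon's test for 4 samples. Chance puts about 5% of profiles past that value, and 6 were past it.

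Among the companion lists, Htr1a (0.832) and Hoxa3 (0.940) stood high in replicate 1, and Gata2 (0.881) and Fat2 (0.834), a granule cell marker, in replicate 3. Tfap2b (0.862), of the locus coeruleus list, also stood high in replicate 3, and Cx3cr1 (0.898), a microglia marker, in replicate 4. Few reads lie behind Hoxa3, with 31, 2, 0 and 0 in replicates 1 to 4, and Cx3cr1, with 7, 6, 2 and 60.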

How the results depend on the processing

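The mean CPM of the 9 genes and of both sums moved by less than 1 SD between libraries with TMM library sizes or with Rn45s left out of the totals. Leaving out 1 of 4 libraries cannot move a mean by 1 SD, so that limit says nothing about those runs. Without replicate 2, for instance, the mean of Slc18a3 fell from 4.47 to 0.461 CPM. The log2 step from lowest to highest library of each of the 8 genes with at least 1 CPM fell when its lowest or its highest library was left out, and the folds are given with the genes. It moved by more than 1 SD to 1.87 for Slc6a2 and 2.28 for Chat without replicate 1, to 1.59 for Slc18a3 without replicate 2, and to 0.26 for Phox2a without replicate 4; a pseudocount of 2 gave 0.30 for Phox2a. The number of genes called against the other 3 libraries was 1, 0, 0 and 6 for replicates 1 to 4 with edgeR, 16, 1, 68 and 359 with DESeq2, and 32, 0, 86 and 416 with no filter on low counts. A filter that used the groups of each comparison, chosen after seeing the data, gave 3, 0, 0 and 7, and RLE scaling or leaving out Rn45s gave the same counts as the main setting. Leaving out 1 of the other libraries gave 10 to 56 genes for replicate 1, 0 to 2 for replicate 2, 1 to 20 for replicate 3 and 35 to 173 for replicate 4; the cause was not tested. Of the listed genes DESeq2 called Cck and Foxp2 lower in replicate 3, and Adra2a, Car8, Gad1, Gja1 and Slc32a1 lower in replicate 4. With no filter edgeR called Cck and Tac1 higher in replicate 1, Car8 and Slc1a3 higher and Cck and Foxp2 lower in replicate 3, and 3 listed genes higher (Nr4a2, Oprm1 and Penk) and 6 lower (Adra2a, Car8, Gad1, Slc1a3, Slc32a1 and Tac1) in replicate 4. Under the main setting edgeR called no listed gene, so no fold change of a called one was followed. No paired analysis was possible because the libraries form 1 group. Depth limits Phox2a, and Dbh, Chat and Slc18a3 where they had no or few reads: 3 reads are about 0.3 CPM.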

Other observations

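Replicate 2 was also the highest library for several peptide and motor neuron genes that no comparison above turned on, named here after their values were seen. Calca and Calcb, which encode the calcitonin gene-related peptides of motor and parabrachial neurons, were at 1.25, 8.15, 0 and 0.273 CPM and at 0.208, 3.69, 0 and 0 CPM in replicates 1 to 4. Prph, the intermediate filament gene of motor and other peripherally projecting neurons, was at 2.81, 7.47, 0 and 0.091 CPM, and Lmx1b had 2.04 CPM in replicate 2 and no read elsewhere. The peptide gene Gal, of locus coeruleus and other neurons, was at 0.728, 2.23, 0.383 and 0 CPM. Replicate 4, the highest for Th, Dbh and Nps, was at or below 3 reads in each of these genes.

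Tac1, which encodes substance P, had another order, at 76.1, 15.4, 5.17 and 0.364 CPM. It was highest in replicate 1 and lowest in replicate 4, where Th was lowest in replicate 1 and highest in replicate 4.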
